A study of Mus musculus with 4 samples.

Results

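The 8 RasGAP genes *Nf1*, *Rasa1*, *Rasa2*, *Rasa3*, *Rasa4*, *Rasal1*, *Rasal2* and *Dab2ip* were examined in 4 sections of *Nf1*+/- mouse brain. They were chosen by name, as genes whose proteins switch Ras off, and they are 8 of the 32285 genes in the count files. The tissue was fresh frozen brain cut at 10 µm and profiled by Visium, a slide array of barcoded spots that collect mRNA from the overlying cells, with each captured molecule counted once by its unique molecular identifier (UMI). All 4 sections carry the same genotype, a heterozygous *Nf1* mutation, with no wild-type section among them, so the values describe the family within heterozygous brain. The mice of the study were on a C57/BL6 background and were littermates of either sex, and the paper gives an age range for them as a whole. The allele, exact age and treatment of the mice behind these sections are not given in the sources used here. Whether the sections came from different mice is not stated in the labels, so n is the number of sections. The p-values cover these sections only, not the spread between mice.

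Ras proteins signal while bound to GTP, and GTPase-activating proteins (RasGAPs) end that signal by speeding up GTP hydrolysis. Neurofibromin, the product of *Nf1*, is the RasGAP mutated in neurofibromatosis type 1, a disorder with nervous system tumours, white matter changes and learning difficulties. The other members speed up the same reaction and carry different regulatory domains. *Rasa1* encodes p120-RasGAP, which docks on activated receptor tyrosine kinases. *Rasa2*, *Rasa3*, *Rasa4* and *Rasal1* form the GAP1 group, which binds membranes through C2 and PH domains, with *Rasa4* and *Rasal1* responding to calcium. *Rasal2* and *Dab2ip* belong to a further group of RasGAPs that also carry PH and C2 domains.

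Each member has its own locus in the mm10 (GRCm38.p6) RefSeq annotation. *Nf1* spans 242 kb at chr11:79339590-79581609. *Rasal2* is the longest, at 277 kb (chr1:157135183-157412595), and *Rasa4* the shortest, at 27.9 kb (chr5:136083916-136111860). The others lie at chr13:85214699-85289486 (*Rasa1*), chr9:96539300-96631612 (*Rasa2*), chr8:13567218-13677587 (*Rasa3*), chr5:120648040-120679597 (*Rasal1*) and chr2:35558446-35730994 (*Dab2ip*). Promoter windows of 300 bases (250 before to 50 after a RefSeq start) were listed for 7 of the 8 members, with 4 windows for *Dab2ip*. The CG dinucleotide occurred 5 to 32 times in these 10 windows, against a median of 7 over 32851 mouse windows. None held TATAAA on either strand, which 13.6% of all windows did. The *Nf1* window lies wholly inside the locus span given above, because the RefSeq start it uses is downstream of the locus start. The bases shown before that start are therefore not upstream of the locus. The windows of *Nf1*, with 30 CG, and of *Rasal2*, with 31 CG, are shown 5′ to 3′ with each CG in capitals, because *Nf1* is the gene mutated in these mice and *Rasal2* is the member whose difference between neuron-rich and remaining spots, given later, held under all alternatives run.
Nf1, chr11:79339642-79339941, plus strand: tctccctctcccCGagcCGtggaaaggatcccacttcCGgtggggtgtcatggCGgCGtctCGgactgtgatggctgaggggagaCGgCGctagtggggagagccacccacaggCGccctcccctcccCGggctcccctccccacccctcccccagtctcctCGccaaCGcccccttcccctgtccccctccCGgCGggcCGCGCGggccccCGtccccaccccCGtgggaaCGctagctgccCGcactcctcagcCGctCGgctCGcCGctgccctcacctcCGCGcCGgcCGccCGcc
Rasal2, chr1:157412546-157412845, minus strand: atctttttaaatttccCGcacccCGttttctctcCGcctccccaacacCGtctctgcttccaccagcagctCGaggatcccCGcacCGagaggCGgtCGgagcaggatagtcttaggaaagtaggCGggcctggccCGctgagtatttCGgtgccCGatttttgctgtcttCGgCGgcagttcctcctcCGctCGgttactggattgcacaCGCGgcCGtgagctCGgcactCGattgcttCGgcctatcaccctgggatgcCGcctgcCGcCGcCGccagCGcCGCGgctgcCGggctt

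Spots with at least 500 UMIs were used, which left 1537, 2358, 2294 and 1431 spots in sections 1 to 4. The section totals were 19261710 to 37002379 UMIs, and section 3 was the shallowest, with a median of 8862.5 UMIs per spot. Choroid plexus markers were frequent in section 1 (189 spots) and section 4 (76 spots) and rare in the others. Pairs of sections shared 427 to 1989 spot barcodes, which are printed on the slides, and no pair had counts that agreed within sampling noise.

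*Nf1* was among the least abundant of the RasGAP transcripts examined in these *Nf1*+/- sections. *Dab2ip* was counted highest, at 40.6, 48.7, 41.2 and 51.7 UMIs per 1000000 UMIs of the section (CPM) in sections 1 to 4, with a mean of 45.5 ± 5.52 (SD, n = 4). *Rasal1* followed at 36.8 ± 4.68 CPM, *Rasa3* at 32.0 ± 2.20, *Rasa1* at 30.1 ± 2.01 and *Rasal2* at 27.1 ± 3.33 (SD, n = 4 each). *Rasa2* was lower, at 13.2 ± 0.928 CPM. *Nf1* was counted at 7.84, 5.08, 6.09 and 6.13 CPM (mean 6.28 ± 1.14, SD, n = 4), with section 1 the highest. *Rasa4* was lowest, at 4.26, 3.13, 2.95 and 3.48 CPM (mean 3.46 ± 0.578, SD, n = 4). The method counts transcript 3′ ends, so these CPM are not divided by transcript length, and capture can differ between genes. *Nf1* also carries a heterozygous mutation in these mice. With no wild-type section, the part of that mutation in its level and rank was not tested.

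The order held 5 higher genes, whose neighbours overlapped, and 3 lower genes, each apart from the one above it. Among *Dab2ip*, *Rasal1*, *Rasa3*, *Rasa1* and *Rasal2*, each gene's 4 values overlapped those of the next in order. *Rasal2* exceeded *Rasa2* by 2.04-fold, *Rasa2* exceeded *Nf1* by 2.12-fold and *Nf1* exceeded *Rasa4* by 1.81-fold, each in 4 of 4 sections and with no overlap of the section values. The exact two-sided sign-flip test gave p = 0.13 for these 3 pairs, the smallest value that 4 sections allow, and 0.175 after Benjamini-Hochberg adjustment over the 7 neighbouring pairs. Among the 5 higher genes, *Dab2ip* exceeded *Rasal1* by 1.24-fold and *Rasal1* exceeded *Rasa3* by 1.15-fold, also in 4 of 4 sections. This test gave those pairs the same p-values, so it does not set the 3 lower pairs apart. Ranked by mean CPM among the 22107 genes with a UMI, *Nf1* stood above 51.9% of them, and the other members above 46.2% (*Rasa4*) to 82.9% (*Dab2ip*). *Nf1* supplied 4.14, 2.48, 3.39 and 3.01% of the UMIs of the 8 genes in sections 1 to 4.

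**Figure D1:**
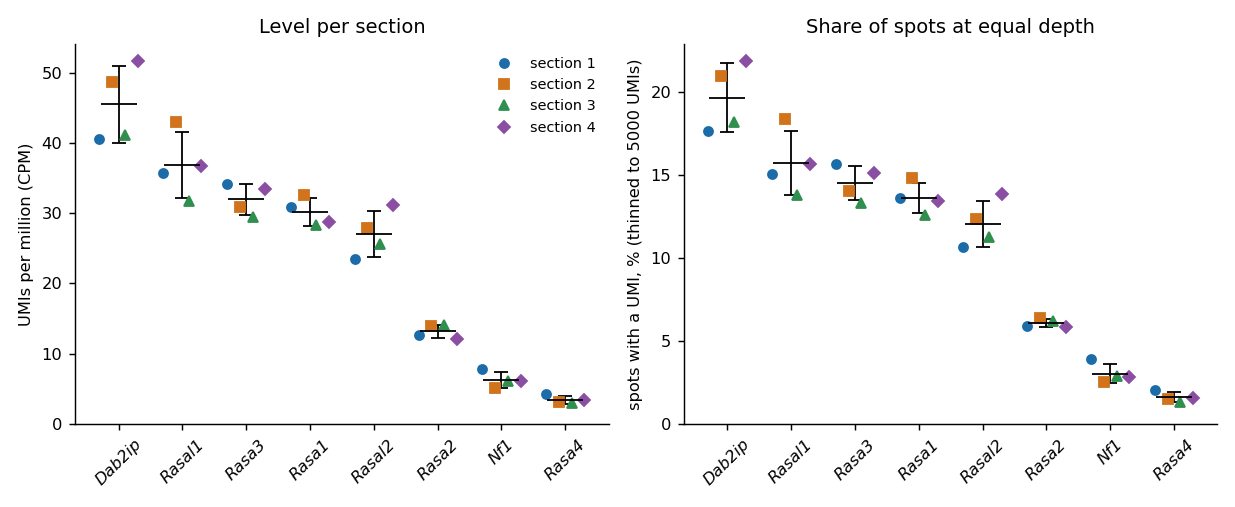
Level of each member in CPM (left) and the percentage of spots expected to hold a UMI when each spot is thinned to 5000 UMIs (right). Points are the 4 sections, and the bar and whiskers are mean ± SD (n = 4); *Rasa2*, *Nf1* and *Rasa4* sit below the other 5 members in every section on both scales.

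At the depth of single spots, *Nf1* was rarely seen. A *Nf1* UMI was found in 10.9, 7.46, 5.62 and 7.69% of spots in sections 1 to 4. The exact (Clopper-Pearson) 95% intervals were 9.41 to 12.6%, 6.44 to 8.60%, 4.72 to 6.65% and 6.36 to 9.19%, and cover counting error only. By comparison, *Dab2ip* was found in 29.9 to 49.0% of spots and *Rasa4* in 2.75 to 6.18%. Section 3 had the lowest share for each of the 8 genes, as it had the fewest UMIs per spot. With each spot thinned to 5000 UMIs, which left out 72, 143, 427 and 207 shallower spots, the share for *Nf1* was 3.04% ± 0.597, against 19.7% ± 2.06 for *Dab2ip* and 1.62% ± 0.317 for *Rasa4* (SD, n = 4 each). Without thinning, *Nf1* was found in 8.57% of the same spots. No spot group is known to lack these broadly transcribed genes, so no background share was set.

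*Nf1* UMIs were too few for their spread over spots to be judged closely. No spot held more than 3 *Nf1* UMIs, and 37 of the 583 spots with *Nf1* held more than 1. The dispersion index, which is 1 when UMIs fall on spots in proportion to their totals and higher when they are concentrated, was 1.05, 1.09, 0.961 and 1.01 for *Nf1* in sections 1 to 4. Its mean of 1.03 exceeded that of 29.4% of the 956 tested genes of like level (0.8 to 1.2 times), whose median was 1.07. *Rasal1* had the highest index of the members, at 1.22, 1.19, 1.12 and 1.38, with a mean above 89.9% of 1548 genes of like level. *Rasa3* (mean 1.09) lay above 74.6% of its like-level genes, and the others lay between the 4.99% of *Rasa4* and the 52.7% of *Rasal2*. These ranks are descriptions with no test. The index stays near 1 when a gene has few UMIs per spot, so the *Nf1* values do not show an even spread. For the same reason the indices of *Nf1*, with 624 UMIs, and *Rasal1*, with 3839, are not directly comparable.

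Most spots held some RasGAP transcript. At least 1 UMI of the family was found in 86.6, 87.8, 71.9 and 82.2% of spots, and 2 or more members were found together in 62.4, 67.7, 40.3 and 57.4%. *Nf1* shared spots with *Rasa1*, *Rasa2*, *Rasa3*, *Rasal1*, *Rasal2* and *Dab2ip* 0.912 to 1.01 times as often as the depth of the spots predicts, over the 4 sections together. The ratio varied between sections, from 0.719 to 1.33 for *Rasa2* and from 0.73 to 1.05 for *Rasa1*, and it was below 1 in every section for *Dab2ip* (0.919 to 0.971). With *Rasa4* it shared 44 spots where 34.1 were predicted, a ratio of 1.29, and the ratio was above 1 in 4 of 4 sections (1.18 to 1.38). No test was made of these ratios.

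To relate the family to cell type, the 10% of spots in each section with the largest excess of UMIs over the number predicted from their totals were taken for each of 3 lists of 8 markers. The neuron list held *Rbfox3*, *Snap25*, *Syt1*, *Syp*, *Stmn2*, *Stmn3* and *Nefl* among its 8 genes. The myelin list held *Mbp*, *Mag*, *Mog*, *Mobp*, *Cnp*, *Cldn11* and *Mal* among its 8 genes, and the list for oligodendrocyte precursor cells (OPCs), which divide and mature into myelinating oligodendrocytes, was *Cacng4*, *Pdgfra*, *Neu4*, *C1ql1*, *Pcdh15*, *Matn4*, *Lhfpl3* and *Cspg4*. Spots chosen by more than 1 list (34 to 45 per section) were left out, which gave 741 neuron-rich, 624 myelin-rich, 607 OPC-marker and 5491 remaining spots over the 4 sections. Most spots left out were in both the myelin and the OPC list (28, 41, 37 and 30 in sections 1 to 4). Neither the myelin-rich nor the OPC-marker group holds these spots. A spot holds several cells, so the groups are enriched for a cell type and are not pure. Differences between them can come from more cells of a type or from more transcript per cell, which cannot be told apart here. Spots differed in depth, with section medians of 13918 to 24062 UMIs in neuron-rich, 3566.5 to 7734 in myelin-rich, 8339 to 15211 in OPC-marker and 8896 to 15545 in remaining spots.

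For each section and group the UMIs were added up, and edgeR's quasi-likelihood test was applied to the 16 sums, blocked on section, with TMM normalization and Benjamini-Hochberg adjustment over all genes tested. All 8 members passed the filter on low counts. An adjusted p-value under 0.05 is called below, and log2 fold changes are given with approximate standard errors (SE). Each SE is the absolute log2 fold change over the square root of the test's F statistic, and the 95% intervals rest on it. The comparisons with remaining spots share those spots.

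In neuron-rich spots, *Rasal2*, *Dab2ip* and *Rasa4* were higher than in remaining spots and no member was lower, while *Nf1* did not pass the test. The members called were 3 of 8, against 34.9% of all 12561 genes tested, 17.8% called higher and 17.1% called lower. The share of the members is therefore near that of all genes. With counts scaled by total UMIs in place of TMM, the 2230 higher and 2148 lower genes became 2997 and 1732, and the same 3 members were called. The median log2 fold change of the 8 members was 0.13, against -0.0094 over all genes tested.

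*Rasal2* was counted at 36.2, 35.1, 36.1 and 39.6 CPM in the neuron-rich spots of sections 1 to 4 and at 21.4, 27.2, 24.0 and 30.0 CPM in the remaining spots. Each neuron-rich value lay above each remaining value. The log2 fold change was 0.45 (SE 0.093, adjusted p = 0.000604), and it stayed called under all 14 alternatives run.

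*Dab2ip*, a scaffold protein also known as AIP1, was counted at 54.3, 60.6, 49.6 and 66.3 CPM in neuron-rich and 38.1, 47.8, 41.4 and 50.3 CPM in remaining spots. It was higher in 4 of 4 sections, but the ranges of the groups overlapped. The neuron-rich value of section 3 (49.6 CPM) lay below the remaining value of section 4 (50.3 CPM). The log2 fold change was 0.31 (SE 0.073, adjusted p = 0.00213), and without the section block the adjusted p was 0.0673.

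*Rasa4*, a calcium-responsive GAP1 member, was counted at 5.93, 5.46, 4.21 and 8.25 CPM in neuron-rich spots, from 88 UMIs in all. In remaining spots it was counted at 3.83, 2.63, 3.09 and 2.44 CPM. The groups did not overlap, and the log2 fold change of 0.90 (SE 0.24, adjusted p = 0.00531) was the largest of the 8. The adjusted p was 0.0522 without section 4, the section with the largest difference, and *Rasa4* was not tested with the top 5% of spots because its counts fell under the filter.

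*Nf1* was counted at 12.2, 5.46, 5.71 and 6.60 CPM in neuron-rich spots, from 43, 28, 19 and 20 UMIs. In the remaining spots it was counted at 7.18, 5.08, 6.37 and 5.88 CPM. Section 1 alone stood high, and the other 3 neuron-rich values lay within the range of the remaining spots. The fold change was 1.15 (95% interval 0.912 to 1.45; log2 0.20, SE 0.16, adjusted p = 0.36), an interval that still holds the 1.37-fold difference of *Rasal2*. Without section 1 the log2 fold change was -0.0037. Of the 148 neuron-rich spots of section 1, 14 were choroid plexus-marker spots, against 0 in sections 2 to 4. With choroid plexus-marker spots left out of all groups, the log2 fold change of *Nf1* was 0.14 (adjusted p = 0.565). The part of these spots in the section 1 value was not tested. *Rasa1* (-0.00047), *Rasa2* (-0.0035), *Rasa3* (0.050) and *Rasal1* (-0.027) had log2 fold changes near 0 and were not called. *Rasal1* ran in both directions, with 50.02, 42.5, 33.4 and 27.4 CPM in neuron-rich spots against 34.1, 43.7, 32.6 and 39.2 CPM in remaining spots. The groups did not overlap for 2 of 8 members, *Rasal2* and *Rasa4*, against 26.3% of all 12569 genes.

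The neuron-rich spots were of a particular kind. All 4 excitatory neuron markers and 4 of 5 cortical layer markers were higher in them, and all 5 striatal, 2 of 3 inhibitory and 6 of 6 microglial markers were lower. Summed striatal markers were 181 to 350 CPM in neuron-rich and 974 to 1266 CPM in remaining spots. The part of this mix in the differences of *Rasal2*, *Dab2ip* and *Rasa4* was not tested.

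**Figure D2:**
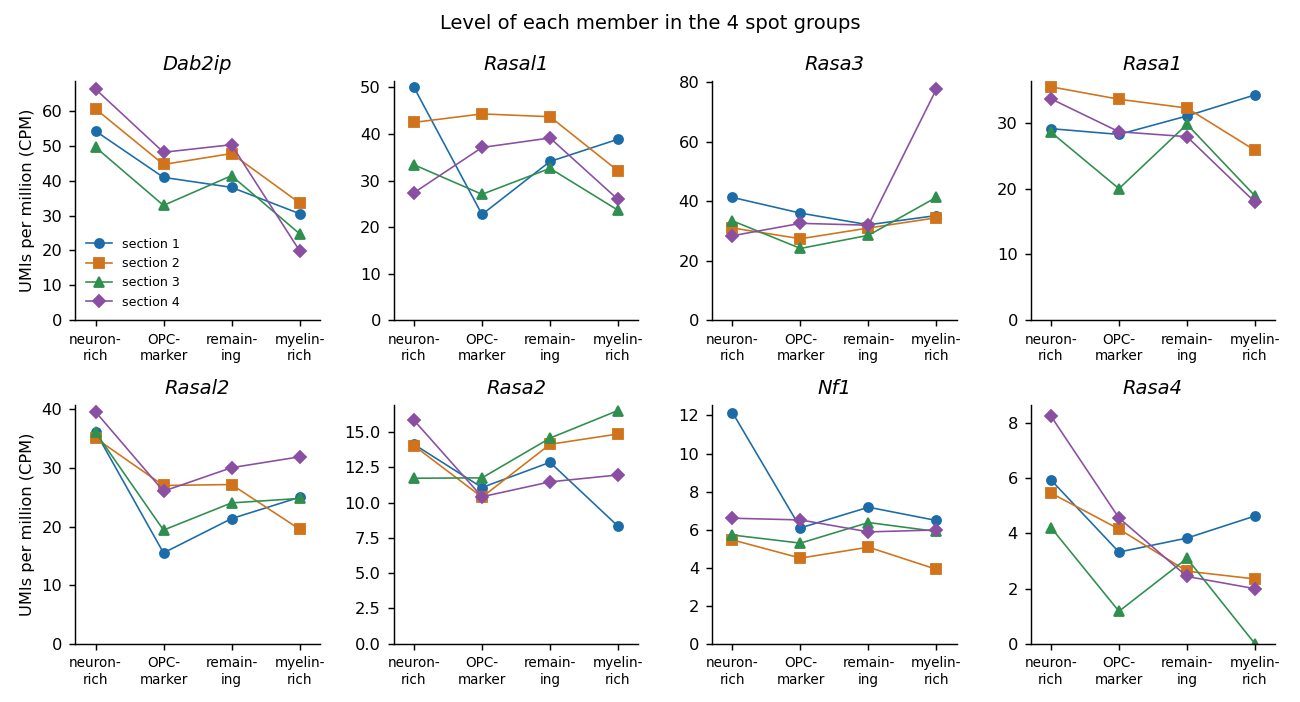
Level of each member in CPM (vertical axes start at 0 and differ between genes) in neuron-rich, OPC-marker, remaining and myelin-rich spots, with 1 line per section. *Rasal2* and *Rasa4* are higher in neuron-rich than in remaining spots without overlap, *Dab2ip* is lowest in myelin-rich spots in every section, and the high *Rasa3* value in myelin-rich spots comes from section 4.

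In myelin-rich spots, *Rasa3* was higher and *Dab2ip* lower than in remaining spots, and the other 6 members, *Nf1* among them, were not called. The 2 of 8 members called compare with 26.8% of all genes tested, 14.6% called higher and 12.2% called lower, a like share. Total-UMI scaling turned 1836 higher and 1528 lower genes into 1579 and 2079, with the same 2 members called. The median log2 fold change of the members was -0.16, against -0.013 over all genes tested.

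*Rasa3*, which acts on R-Ras and Rap1 as well as Ras, was counted at 35.2, 34.4, 41.3 and 77.8 CPM in myelin-rich spots, from 35 to 44 UMIs per section. In remaining spots it was counted at 32.1, 31.0, 28.5 and 31.9 CPM. The values of the groups did not overlap, but the size of the difference came largely from section 4. The log2 fold change was 0.53 (SE 0.17, adjusted p = 0.0247). The call was lost without section 4 (log2 0.30, adjusted p = 0.169), without section 3 (adjusted p = 0.126) and without the block (adjusted p = 0.0514). At 5000 UMIs per spot, 20.9% of myelin-rich and 14.2% of remaining spots are expected to hold *Rasa3*. These shares leave out spots under 5000 UMIs, and the median myelin-rich spot held 3566.5 UMIs in section 3 and 4037 in section 4. Over all spots of the groups the unthinned shares were 22.3% and 32.9%, with myelin-rich spots shallower. The thinned and unthinned shares therefore cover different spots.

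*Dab2ip* was counted at 30.5, 33.6, 24.8 and 19.9 CPM in myelin-rich spots, from 33, 43, 21 and 10 UMIs, and each value lay below the lowest remaining value of 38.1 CPM. The log2 fold change was -0.55 (SE 0.13, adjusted p = 0.00318), and with the top 5% of spots the adjusted p was 0.0766. The groups did not overlap for these 2 of 8 members, against 23.3% of all genes.

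*Nf1* was counted at 6.48, 3.91, 5.90 and 5.98 CPM in myelin-rich spots, from 7, 5, 5 and 3 UMIs, and these values overlapped those of the remaining spots. The fold change was 0.920 (95% interval 0.595 to 1.42; log2 -0.12, SE 0.30, adjusted p = 0.83). With 20 UMIs in the myelin-rich spots, a difference smaller than this interval spans was not detectable. *Rasa4* had 9 UMIs in the myelin-rich spots and none in section 3. The upper 95% limit for a count of 0 is about 3 UMIs, or 3.54 CPM there. The remaining spots of section 3 were at 3.09 CPM, below that limit. *Rasa1* (-0.20), *Rasa2* (0.019), *Rasal1* (-0.22) and *Rasal2* (0.0055 on the log2 scale) were not called.

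Other cell types moved with the myelin list. Of the other lists, 5 of 6 newly formed oligodendrocyte, 5 of 6 astrocyte and 5 of 6 microglial markers were higher in myelin-rich spots. All 8 neuron markers and 3 of 4 excitatory neuron markers were lower, with summed neuron markers of 2311 to 3870 CPM in myelin-rich and 4103 to 5686 CPM in remaining spots. The part of these markers in the differences of *Rasa3* and *Dab2ip* was not tested.

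In OPC-marker spots none of the 8 members was called against remaining spots, and DESeq2 also called 0. At an unadjusted p-value under 0.05 there were also 0 of 8, against 891 of all 12561 genes, so a count of 0 does not set the members apart. In all, 0.167% of the genes tested were called, 0.159% higher and 0.00796% lower. *Nf1* was counted at 6.09, 4.50, 5.29 and 6.51 CPM in OPC-marker spots, from 11, 13, 9 and 10 UMIs. These overlapped the remaining spots, and the fold change was 0.900 (95% interval 0.657 to 1.23; log2 -0.15, SE 0.22, adjusted p = 0.956). *Rasa2* had the largest log2 difference, -0.31 (SE 0.16, adjusted p = 0.765), with lower values in 4 of 4 sections. *Rasal2* was also lower in 4 of 4 sections, at -0.20 (SE 0.13, adjusted p = 0.83). The median log2 fold change of the 8 members was -0.14, with 1 of 8 above 0, against 0.0040 over all genes tested. The groups overlapped for all 8 members, against 2.63% of all genes whose groups did not. Summed OPC markers reached only 368 to 444 CPM in these spots, against 82 to 110 CPM in remaining spots, and summed neuron markers were 4322 to 5117 CPM, so most transcripts in OPC-marker spots can come from other cells.

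Neuron-rich and myelin-rich spots were also set against each other. *Dab2ip* and *Rasal2* were higher in neuron-rich spots and *Rasa3* was lower, and the other 5 members were not called. The 3 of 8 members compare with 42.7% of all 12553 genes tested, 20% called higher and 22.7% called lower, so the members again stood near the background. Total-UMI scaling moved the median of all genes by 0.13 on the log2 scale and turned 2506 higher and 2854 lower genes into 3398 and 2256.

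*Dab2ip* had a log2 fold change of 0.86 (SE 0.14, adjusted p = 1.88e-05), 1.81-fold higher in neuron-rich spots, and stayed called under all 13 alternatives run. *Rasal2* differed by 0.45 (SE 0.17, adjusted p = 0.0369), and lost its call in 5 alternatives, among them the runs without section 2 (adjusted p = 0.195) and without section 3 (adjusted p = 0.0847). With the top 5% of spots its log2 fold change was 0.032. *Rasa3* differed by -0.48 (SE 0.19, adjusted p = 0.0392), was lower in 3 of 4 sections, and lost its call in 7 alternatives, among them the runs without section 2 (0.0512), section 3 (0.11) and section 4 (log2 -0.17, adjusted p = 0.432) and total-UMI scaling (adjusted p = 0.123). *Rasa4* had the largest difference, 1.15, with a wide SE of 0.52 (adjusted p = 0.0797). Total-UMI scaling (adjusted p = 0.0465) and no filter on low counts (0.0371) put it past the threshold. *Nf1* differed by 0.32 (SE 0.32, adjusted p = 0.459), a fold change with a 95% interval of 0.792 to 1.97. The groups did not overlap for *Dab2ip* and *Rasal2*, against 36.4% of all genes.

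**Figure D3:**
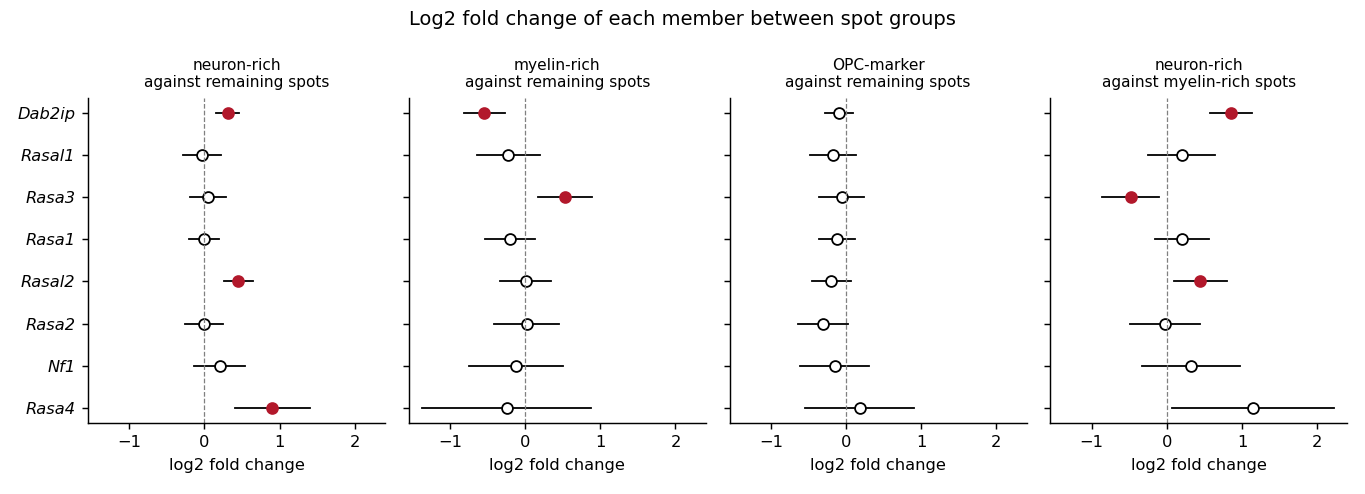
Log2 fold change of each member (points) with its 95% interval (lines) in the 4 comparisons of spot groups, from edgeR. Filled points had an adjusted p-value under 0.05; *Nf1* is open in all 4 panels, and the widest intervals are those of *Rasa4*.

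*Nf1* was also set against its own family. Relative to the summed UMIs of the 7 other members, the log2 level of *Nf1* differed between neuron-rich and remaining spots by 0.36, -0.050, -0.31 and 0.0093 in sections 1 to 4 (mean 0.0023, exact two-sided sign-flip p = 0.875). Between myelin-rich and remaining spots the mean was 0.11 (exact p = 0.375), between OPC-marker and remaining spots 0.071 (exact p = 0.5), and between neuron-rich and myelin-rich spots -0.11 (exact p = 0.625). All 4 adjusted p-values were 0.83 or higher. No comparison moved the same way in 4 of 4 sections, and 0.13 is the smallest p that 4 sections allow.

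The *Nf1* locus also holds other genes. Among them, *Omg*, *Evi2a* and *Evi2b* lie within the span of *Nf1* (*Omg* at chr11:79500982-79504082, *Evi2a* at chr11:79526560-79530609). *Omg*, which encodes oligodendrocyte myelin glycoprotein, had 12379 UMIs and *Evi2a* 2889, against 624 for *Nf1*, and *Evi2b* had 0. In myelin-rich spots *Evi2a* was higher than in remaining spots by 2.84 on the log2 scale (SE 0.13, adjusted p = 1.24e-13) and *Omg* by 0.62 (SE 0.081, adjusted p = 3.10e-06), each in 4 of 4 sections, where *Nf1* had -0.12. Whether reads of these genes were separated from those of *Nf1* by strand is not given in the sources used here.

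The rest of the Ras cycle was followed in a list of 25 genes, of which 24 were tested (*Rasal3* fell under the filter). In neuron-rich against remaining spots 4 were higher and 3 lower, 7 of 24 against 34.9% of all genes. In myelin-rich spots 5 were higher and 10 lower, 15 of 24 against 26.8% of all genes, and in OPC-marker spots none was called, against 0.167%. Neuron-rich against myelin-rich spots had 8 higher and 6 lower, 14 of 24 against 42.7% of all genes. Of the Spred genes, whose proteins bring neurofibromin to the membrane, none was called against remaining spots, and *Spred2* was higher in neuron-rich than in myelin-rich spots by 0.59 (SE 0.18, adjusted p = 0.0124). There *Spred1* had -0.078 and *Spred3* 0.070, neither called.

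The largest differences of the list lay in exchange factors, which load GTPases of the Ras family with GTP. *Rasgrp3* was higher in myelin-rich than in remaining spots by 1.86 (SE 0.28, adjusted p = 2.84e-05) and lower in neuron-rich than in myelin-rich spots (-2.31, SE 0.33). *Rasgrf2*, a calcium-responsive exchange factor of neurons, was lower in myelin-rich spots (-1.07, SE 0.18, adjusted p = 0.000102) and higher in neuron-rich than in remaining spots (0.49, SE 0.10, adjusted p = 0.000565). Against myelin-rich spots it was higher by 1.56 (SE 0.18). *Rasgrp2*, which is abundant in striatal neurons, was lower in neuron-rich than in remaining spots (-1.45, SE 0.13, adjusted p = 2.04e-08) and than in myelin-rich spots (-1.10, SE 0.19). Among the GTPases, *Rras2* was higher than in remaining spots both in neuron-rich spots (0.73, SE 0.13, adjusted p = 0.00018) and in myelin-rich spots (0.66, SE 0.23, adjusted p = 0.0393, higher in 3 of 4 sections), and had 0.075 between the groups (SE 0.23, not called). *Nras* was higher in myelin-rich than in remaining spots (0.69, SE 0.15, adjusted p = 0.00093). Apart from *Rras2* in myelin-rich spots, each called difference of these exchange factors and GTPases had the same direction in 4 of 4 sections.

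The files hold no spot positions, so regional spread was described over 10 clusters of spots with like expression, made without the members, the Ras list or the score markers. A cluster is called a region here and named by its leading genes, and the 9 regions with at least 500000 UMIs were compared, a limit set after the data were seen. No test was made.

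*Rasal1* had the widest regional range, with 5.73 times between its highest and lowest regions, and *Rasa4* followed with 5.08 times. Each range rests on a region with few UMIs, 19 in the lowest for *Rasal1* and 6 in the highest for *Rasa4*, so their order is not settled. *Rasal1* was counted at 69.1 ± 6.19 CPM (SD, n = 4), and at no less than 60.0 CPM in any section, in the region led by *Nr4a2* and *Nxph3*. In the region led by *Ido1* and *Lrrc10b*, where summed striatal markers were highest at 2707 CPM, it was counted at 13.1 to 21.7 CPM (mean 17.6 ± 3.92, SD, n = 4), with no overlap between the regions. It was lowest, at a mean of 12.1 CPM over 3 sections, in the region led by *Krt18* and *F5*, which held 19 *Rasal1* UMIs over all 4 sections (13.9 CPM when pooled). Summed choroid plexus markers reached 1934 CPM there. *Rasa3* was highest, at 58.4 ± 27.4 CPM (37.5 to 97.4, n = 4), in the region led by *A530053G22Rik* and *Enpp6*, of whose spots 77.9% were myelin-rich. It was 40.8 ± 2.91 CPM in the *Nr4a2* region and 23.9 ± 1.63 CPM in the *Ido1* region.

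By the mean over sections, *Dab2ip* (53.7 ± 6.45 CPM) and *Rasal2* (35.9 ± 3.06 CPM) were highest in the region led by *Vip* and *Kcnab3*. That region held neuron-rich spots as 34.9% of its spots and had the most summed excitatory markers, 4672 CPM. When pooled, *Dab2ip* was higher in the region led by *Fmod* and *Slc22a6*, at 62.4 CPM from 55 UMIs, than in the *Vip* region, at 54.9 CPM. In the *Fmod* region its mean over 2 sections was 48.9 CPM (23.1 and 74.6). In the *Ido1* region *Rasal2* was lowest (19.2 ± 2.94 CPM), whereas *Dab2ip* was 49.1 ± 3.91 CPM. *Rasa4* was 1.68 ± 0.513 CPM in the *Ido1* region and 1.41 CPM in the region led by *Pdyn* and *Crym*, against 4.58 ± 0.594 CPM in the *Vip* region (SD, n = 4). *Rasa1* and *Rasa2* had the smallest ratios of highest to lowest region, 1.58 and 1.65, against 2.21 for *Nf1*. The highest region of *Rasa2* held 12 of its UMIs. *Nf1* was 5.09 ± 0.698 CPM in the *Ido1* region, 7.01 ± 2.22 in the *Vip* region, 7.24 ± 3.24 in the *Nr4a2* region and 5.32 ± 1.47 in the *Enpp6* region (SD, n = 4), values that overlap one another. Its extremes, 3.32 and 7.34 CPM, were means over 2 and 3 sections in regions that held 4 and 10 *Nf1* UMIs in all.

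**Figure D4:**
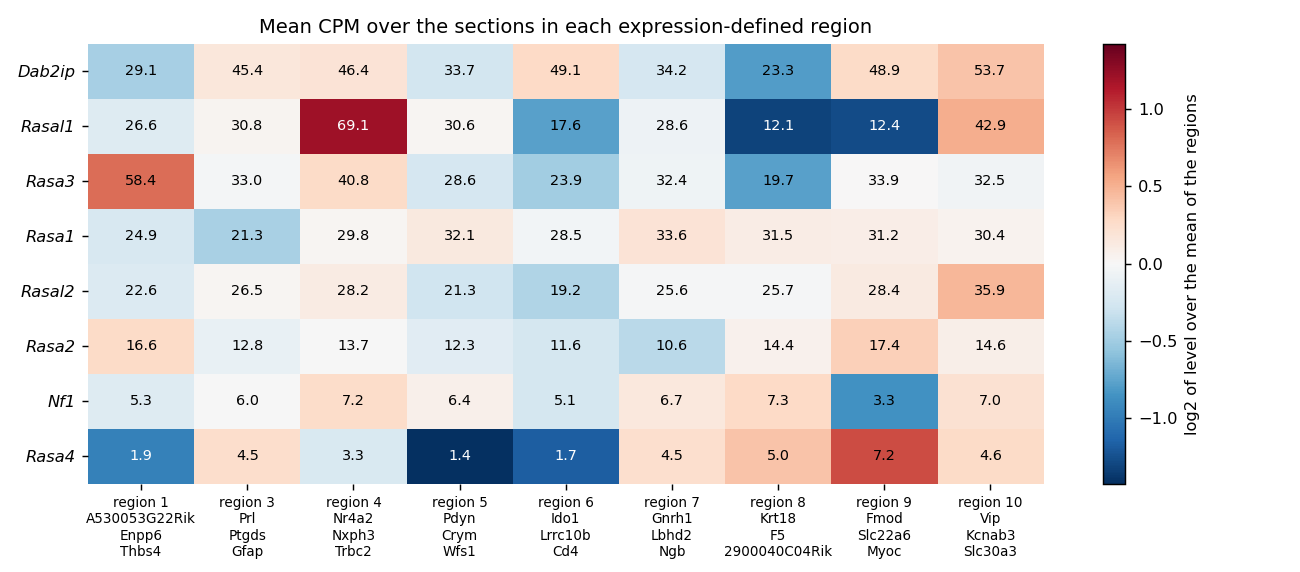
Mean level over the sections (printed, in CPM) of each member in the 9 regions with at least 500000 UMIs, coloured by the log2 of that level over the member's mean of the regions. *Rasal1* stands out in region 4 (69.1 CPM) and *Rasa3* in region 1 (58.4 CPM); regions 8 and 9 rest on few UMIs and on 3 and 2 sections.

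The genes whose levels ran most like a member's were ranked by Pearson's r of log2 levels over section sums of these regions. The sums share libraries, so r is a description. Over 37 sums *Nf1* ran most like *Prss36* (r = 0.91), *Sh3pxd2a* (0.88) and *Tpp2* (0.87). *Rasal1* ran most like *Ppp2r5c* (0.85), *Pcdh1* (0.84) and *Trib1* (0.83), *Rasal2* like *Map4k3* (0.67), *Doc2a* (0.66) and *1700021F05Rik* (0.63), and *Dab2ip* like *D430041D05Rik* (0.82) and *Psd3* (0.80). *Rasa1* ran most like *Coq9*, *Cyb561d2* and *Pcmtd2*, *Rasa2* like *Rassf1*, *Ppp2r3d* and *Tnrc6b*, and *Rasa3* like *Rasa2*, *Zfp90* and *Ppp2r3d*, all with r of 0.94 or 0.95. Over the 33 sums of at least 100000 UMIs, a limit added after the data were seen, *Rasa3* and *Rasa2* had r = 0.53, and the 3 genes named for *Rasa2* had r of 0.29 to 0.45. *Dab2ip* still ran most like *D430041D05Rik* (0.86). The gene most like *Nf1* became *Riok1* (0.88), that most like *Rasal1* became *Lpgat1* (0.91) and that most like *Rasal2* became *Arhgap35* (0.80), and except for *Dab2ip* no member kept a gene named over 37 sums among its first 3. Of the 33 sums, 10 held fewer than 5 *Nf1* UMIs.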

How the data were processed

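Visium libraries of 4 *Nf1*+/- brain sections were analysed. Per the file headers and labels, the deposited tables are raw counts of UMIs for every gene in every spot, not normalized, made by the authors with Space Ranger 1.3.1 and mm10. Strand and intron settings are not given in the sources used here. Counts of spots with at least 500 UMIs were added up by section and group and tested with edgeR 4.0.16 in R 4.3.3 (filterByExpr, 12569 genes). The score was observed minus expected marker UMIs over the square root of the expected number. The test was checked on simulated counts. Genes of a comparison's own score lists were left out of its calls. Groups of 1 section share its tissue and are therefore paired. Over 24 such pairs of sums, deviations from the mean of each group had correlations of 0.094 to 0.57. Regions were k-means clusters (scikit-learn 1.9.0) of 20 components from 2000 variable genes. Sequences and coordinates are RefSeq GRCm38.p6.

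All 8 members are described. Of the Ras list, the 3 Spred genes and up to 3 other called genes per comparison with the largest change and the same direction in 4 sections are named, and for each member with at least 500 UMIs the 3 genes most like it. Some genes that these rules and lists hold are not reported here. The members and lists were chosen with earlier results of these data known. Alternatives were the top 5% or 20% of spots, equal marker weights, all deposited spots, no choroid plexus-marker spots, each group against all other spots, DESeq2 1.42.0, scaling by total UMIs, no low-count filter, no block, and each section left out. Precision is limited by UMIs per sum, from 501603 to 27381603.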

Additional observations from a re-analysis of the deposited data

Results flagged for a closer look

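Of 56 sets of 4 section values of the members, 4 had a section far from the others, where chance alone gives about 1 in 20. The dispersion index of *Dab2ip* was 1.06 in section 1 and 0.998 to 1.01 in the others. In myelin-rich against remaining spots, the log2 ratio of *Rasal1* was 0.21 in section 1 and -0.54 to -0.43 in the others, and that of *Rasa2* was -0.55 in section 1 and 0.11 to 0.23 in the others. In the same comparison the log2 ratio of *Rasa4* was -2.40 in section 3, where the myelin-rich spots held 0 *Rasa4* UMIs, and 0.049 to 0.40 in the others.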

How the results depend on the processing

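Of 706 values of members and counts under alternative settings, 592 were labelled the same as in the main run. For fold changes of members this meant the same direction and side of the threshold. For levels, shares and dispersion indices it meant a shift smaller than the SD between sections. For *Nf1* relative to the others only the direction had to hold. For counts of calls a moderate shift was allowed, such as from 3 to 2 members in neuron-rich spots with the top 5% of spots. *Rasal2* in neuron-rich against remaining spots and *Dab2ip* in neuron-rich against myelin-rich spots were called under all alternatives run, and *Nf1* under none. Most reversals were of members with log2 fold changes near 0, and none was of a called member. The cause of a changed value was not tested.

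Without the replicate block, which takes out the pairing of spot groups within a section, genes called were 2233 in neuron-rich and 6 in OPC-marker spots, 1 member was called in myelin-rich spots and 1 in neuron-rich against myelin-rich spots, and in neuron-rich spots *Rasa1* was 0.0035 and *Rasa2* 0.00063, with *Rasal2* in myelin-rich spots at -0.011. The other calls of members were the same without it, except that of *Dab2ip* in neuron-rich spots.

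Values of *Rasa1* in neuron-rich against remaining spots above 0 were 0.0074 (DESeq2), 0.0088 (all deposited spots), 0.046 (each group against all other spots), 0.041 (equal marker weights), 0.0094 (no filter) and 0.065 (total-UMI scaling). Those of *Rasa2* were 0.0093, 0.00020, 0.043, 0.068, 0.0063 and 0.062 in the same order and 0.051 with the top 20% of spots, and those of *Rasal1* 0.064 (equal weights), 0.20 (top 20%) and 0.039 (total-UMI). In myelin-rich spots *Rasal2* was -0.026 (all deposited spots), -0.098 (all other spots), -0.058 (no filter), -0.062 (total-UMI) and -0.013 (no choroid plexus-marker spots), *Rasa2* -0.043 (no filter), -0.0047 (top 20%), -0.048 (total-UMI) and -0.069 (no choroid plexus-marker spots), and with the top 20% *Nf1* was 0.10 and *Rasa4* 0.24. In OPC-marker spots *Rasa3* was 0.023 and *Rasa4* -0.017 against all other spots, *Rasa1* 0.012 and *Dab2ip* 0.0035 with the top 20%, and *Nf1* 0.10 with the top 5%. In neuron-rich against myelin-rich spots *Rasa2* was 0.050 (no filter), 0.055 (top 20%), 0.11 (total-UMI) and 0.016 (no choroid plexus-marker spots).

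Genes called in OPC-marker spots were 838 against all other spots, a run that also kept spots chosen by more than 1 list. They were 39 with equal weights, 131 with no filter and 37 without choroid plexus-marker spots, against 21 in the main run. Each of these runs called 0 members. With equal weights 1 member was called in neuron-rich against myelin-rich spots, and with the top 5% 1 in myelin-rich spots. With a pseudocount of 0.1, *Nf1* relative to the others was -0.015 in neuron-rich against remaining spots. The share of spots with *Nf1* was 7.93% unthinned, 3.04% at 5000 and 1.55% at 2500 UMIs.

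Leaving out each section in turn gave these ranges. In neuron-rich against remaining spots they were -0.0037 to 0.31 for *Nf1*, -0.046 to 0.069 for *Rasa1*, -0.10 to 0.10 for *Rasa2*, -0.020 to 0.13 for *Rasa3*, -0.19 to 0.12 for *Rasal1* and -0.12 to 0.11 for *Nf1* relative to the others. In myelin-rich against remaining spots they were -0.084 to 0.19 for *Rasa2*, -0.75 to 0.13 for *Rasa4*, -0.10 to 0.20 for *Rasal2*, 2091 to 3167 genes called and 1 to 2 members called. In OPC-marker spots they were -0.10 to 0.45 for *Rasa4* and 8 to 16 genes. In neuron-rich against myelin-rich spots they were -0.20 to 0.18 for *Rasa2*, -0.30 to 0.029 for *Nf1* relative to the others and 1 to 3 members. The 20 *Nf1* and 9 *Rasa4* UMIs of the myelin-rich spots limit what could be seen there.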
